A study of Mus musculus with 6 samples.

Results

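Lists of accessible regions from NMuMG cells treated with TGFβ1 for 2 h and for 12 h, were compared with each other. NMuMG is an epithelial line from the normal mammary gland of the mouse that loses its epithelial shape under TGFβ. Accessibility was measured by ATAC-seq, in which the transposase Tn5 cuts DNA that is not shielded by nucleosomes, and a peak is an interval where cuts pile up. From each list the distinct intervals of 150 bp or more were taken, and intervals less than 1000 bp apart were merged into 1 region. This gave 32548 regions at 2 h and 33079 at 12 h, which are 65627 of the 82392 regions of the vehicle, 2 h and 12 h lists. A region was called shared where at least 1 bp of it lay in a region of the other list, and otherwise it belonged to 1 time.

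All cells were taken off serum and insulin for 6 h before treatment. They then received TGFβ1 at 5 ng/ml for 2 h (TGFb2h) or for 12 h (TGFb12h), while the vehicle cells received the diluent and were collected after 2 h. Each condition had 2 biological replicates, and the authors kept the peaks that both replicates reproduced, so that each condition has 1 list. No value per replicate was used, and no test between the 2 times could be made. The 12 h cells had also been without serum for longer, and for this comparison the time under TGFβ and the time without serum cannot be told apart. By the read numbers that the study lists, both 12 h libraries kept fewer mapped and filtered reads than either 2 h library. No read counts came with the peaks, so the support of a single region is unknown, and a region missing from a list may have signal below the threshold of the authors. The lists were of near equal length, with 36867 distinct intervals at 2 h and 36874 at 12 h.

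TGFβ binds a pair of receptor kinases that phosphorylate SMAD2 and SMAD3, which join SMAD4 and bind DNA beside other factors such as AP-1, the dimers of Jun and Fos proteins. In mammary epithelial cells the signal first induces immediate early genes and its own inhibitors. Later the cells give up cadherin junctions and keratins and take on the matrix, protease and integrin genes of mesenchymal cells, a change called the epithelial to mesenchymal transition (EMT). The comparison of 2 h with 12 h asked how the accessible regions differed between an early and a late time of this response.

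The lists shared most of their regions. Of the 39189 places in either list, 26293 (67.1%) were shared, 6154 were at 2 h alone and 6742 at 12 h alone. Those at 2 h alone were 18.9% of the 2 h list (95% Wilson interval 18.49 to 19.34%), and those at 12 h alone were 20.4% of the 12 h list (19.95 to 20.82%). These intervals cover counting error only, and regions are not replicates. Over the 20 chromosomes the share at 2 h ran from 15.2% to 21.6% and that at 12 h between 17.7% and 24.4%, and 16 of 20 chromosomes had more regions at 12 h alone than at 2 h alone. The regions at 1 time were seldom near misses: 167 of those at 2 h alone and 147 of those at 12 h alone lay within 1000 bp of a region of the other list, and 44 and 54 overlapped an interval that the other list held but that was narrower than 150 bp.

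Regions found at 1 time were narrow, with a median width of 367 bp at 2 h alone and 370 bp at 12 h alone against 769 bp for shared regions. The width of a shared region is here its span over both lists, which is at least that in either list. Pairs of 1 region from each list had a median of 658 bp at 2 h and 692 bp at 12 h. Of the 2 h regions 150 to 199 bp wide, 59.4% had no 12 h region, and of those 1500 bp or wider 2.08% had none. The same shares of the 12 h list were 60.6% and 1.04%. In between, the lists parted. Of the regions 300 to 399 bp wide, 31.9% (30.4 to 33.3%) of the 2 h list and 41.1% (39.6 to 42.7%) of the 12 h list were without a partner, and of those 250 to 299 bp wide 34.1% and 46.2%. At 400 to 499 bp the shares were 24.4% (23.1 to 25.7%) and 27.8% (26.4 to 29.2%). Below 250 bp and from 500 bp up, the intervals of both lists overlapped in every width class. Near the width minimum, 548 intervals of the 2 h list and 447 of the 12 h list were between 100 and 150 bp wide and were dropped, while 1890 and 1729 were 150 to 199 bp wide and were kept.

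**Figure D1:**
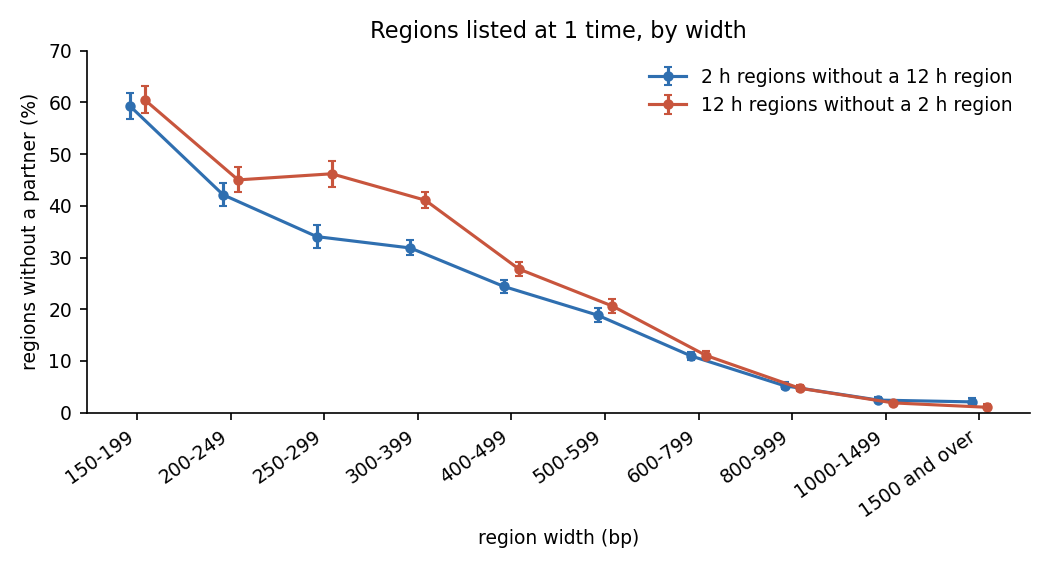
Percent of regions (vertical axis) without an overlapping region at the other time, by region width in bp (horizontal axis), for the 2 h list (blue) and the 12 h list (red). Points are shares and bars are 95% Wilson intervals. Both lists fell from about 60% at the narrowest widths to about 1 to 2% at the widest, and the 12 h list stood above the 2 h list from 250 to 499 bp, with 41.1% against 31.9% at 300 to 399 bp.

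Sequences of the regions that the results below turn on are given first, read from the plus strand of NCBIM37 (mm9). The regions were chosen after their values were seen, from genes of the lists described below and from the widest regions at 1 time, and each stretch has 30 bp to either side of a motif match, which is in capitals. In regions at 12 h alone, the capitals mark the AP-1 site TGACTCA, which reads TGAGTCA on the other strand. They are shown because AP-1 matches were the clearest sequence difference between the regions of both times.
Sparc, chr11:55231747-55231813: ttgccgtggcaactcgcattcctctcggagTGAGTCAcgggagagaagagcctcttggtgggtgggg
Fbn1, chr2:125375120-125375186: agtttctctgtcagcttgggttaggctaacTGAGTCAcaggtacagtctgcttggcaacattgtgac
Adam12, chr7:141429194-141429260: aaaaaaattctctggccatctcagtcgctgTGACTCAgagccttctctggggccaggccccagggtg
Itga5, chr15:103201090-103201156: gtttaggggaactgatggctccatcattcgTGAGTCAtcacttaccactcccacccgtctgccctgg
Palld, chr8:64052253-64052319: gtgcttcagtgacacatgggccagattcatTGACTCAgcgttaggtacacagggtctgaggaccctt
Sh3rf1, chr8:63635366-63635432: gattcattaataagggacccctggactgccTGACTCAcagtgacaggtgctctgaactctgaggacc
The stretches of Sparc and Palld lay in introns of these genes and the others between genes. The Sh3rf1 region, 2074 bp wide and 67665 bp from the nearest protein-coding start site, was the widest of those at 12 h alone that held more than 1 AP-1 match, with 4.

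In regions at 2 h alone, the capitals mark the forkhead (FOX) site TGTTTAC, which reads GTAAACA on the other strand, or the SMAD site GGCGCC, both of which had more matches there than in regions at 12 h alone. For the SMAD site the difference was clear only in regions under 250 bp wide, and those shown are wider. The genes shown are the tight junction gene Ocln, the cadherin gene Cdh1, the keratin genes Krt19 and Krt18, and Id1, a gene of the Id family of inhibitors of differentiation. The stretches near Klf5 and Grhl2, with AP-1 matches, show that regions at 2 h alone could hold this site too.
Ocln, FOX, chr13:101302989-101303055: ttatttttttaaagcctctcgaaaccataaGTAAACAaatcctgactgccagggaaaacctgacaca
Cdh1, FOX, chr8:109136001-109136067: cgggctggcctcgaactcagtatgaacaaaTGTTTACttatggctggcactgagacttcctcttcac
Krt19, FOX, chr11:100020984-100021050: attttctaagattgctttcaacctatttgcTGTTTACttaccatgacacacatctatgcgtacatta
Id1, SMAD, chr2:152565177-152565242: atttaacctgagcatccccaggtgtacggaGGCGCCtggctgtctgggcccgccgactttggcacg
Krt18, SMAD, chr15:101864722-101864787: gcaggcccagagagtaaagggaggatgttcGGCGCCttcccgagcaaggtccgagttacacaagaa
Klf5, AP-1, chr14:99684886-99684952: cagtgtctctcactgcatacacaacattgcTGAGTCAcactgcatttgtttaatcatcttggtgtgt
Grhl2, AP-1, chr15:37122710-37122776: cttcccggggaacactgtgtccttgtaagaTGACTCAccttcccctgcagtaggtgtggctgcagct
Those of Ocln and Cdh1 lay in introns and the others between genes. The regions of Ocln, Krt19 and Grhl2 also overlapped a region of the vehicle list, and those of Cdh1, Id1, Krt18 and Klf5 did not.

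Regions at 1 time lay away from transcription start sites. A start site lay in or within 1000 bp of 39.2% of shared regions, 9.70% of regions at 2 h alone (8.99 to 10.5%) and 7.65% of those at 12 h alone (7.04 to 8.31%). Introns held 25.9%, 39.6% and 38.8% of them by the centre of the region, and 33.6%, 48.3% and 51.7% were intergenic. Away from start sites the nearest protein-coding start was a median of 25818 bp from regions at 2 h alone, 29140 bp from shared regions and 34509 bp from regions at 12 h alone, so regions at 12 h alone were the farthest out. Regions at 2 h alone were also nearer to shared regions, with 40.3% within 10 kb of one, against 33.0% of those at 12 h alone.

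The vehicle list, which the rule did not use, overlapped 905 (14.7%) of the regions at 2 h alone and 158 (2.34%) of those at 12 h alone, against 57.5% of shared regions. Most regions at 2 h alone were thus in neither the vehicle list nor the 12 h list. The vehicle list was shorter, with 16765 regions, and whether its length bears on these shares was not tested. The vehicle cells were collected after 2 h, so their time without serum matched that of the 2 h cells and not that of the 12 h cells. How this bears on the shares was not tested.

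Away from start sites, the AP-1 site was present in nearly as many regions at 12 h alone as in shared regions and in fewer regions at 2 h alone. In the 500 bp around the centre, 50.7% of 15995 shared regions, 32.4% of 5557 regions at 2 h alone (31.2 to 33.6%) and 48.2% of 6226 regions at 12 h alone (47.0 to 49.5%) had at least 1 match. Windows 5 kb away had a match in 7.96%, 8.05% and 7.89%. At least 2 matches were found in 12.4%, 3.64% and 9.40% of regions. The share at 12 h alone was above that at 2 h alone on all 20 chromosomes, with 43.3 to 56.0% against 27.6 to 39.2%. The matches were densest at the centre of the regions. Within 50 bp of it lay a match in 24.0% of regions at 12 h alone and in 14.8% of those at 2 h alone.

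Width, base composition and location each moved with the classes, and the AP-1 difference was also present within them. In regions 250 to 349 bp wide the shares were 49.7% (shared), 35.9% (2 h alone) and 52.9% (12 h alone), and in those 500 bp or wider 52.1%, 31.9% and 52.2%. In the narrowest, under 250 bp, they were 23.6%, 24.6% and 33.8%. Where G and C made up less than 42% of the window, 35.6% of regions at 2 h alone and 49.5% of those at 12 h alone had a match, and where they made up 55% or more, 22.2% and 40.2%. Introns (32.5% and 48.4%) and intergenic sequence (32.4% and 48.1%) gave the same order. So did regions without a vehicle region, with 33.5% at 2 h alone and 48.9% at 12 h alone, but not the few that a vehicle region overlapped. There the order turned, with 26.2% (23.3 to 29.3%) of 813 regions at 2 h alone and 17.3% (11.7 to 24.8%) of 127 at 12 h alone.

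The FOX site had the opposite order, with 13.6% of regions at 2 h alone (12.8 to 14.6%), 10.9% of shared regions and 7.37% of regions at 12 h alone (6.75 to 8.05%). Windows 5 kb away had 7.08%, 6.97% and 6.82%, so at 12 h alone the share was close to that of the flanks. Regions at 2 h alone had the higher share on all 20 chromosomes, in each of the 4 width classes and each of the 5 classes of G and C content. Among forkhead factors, FOXA1 marks luminal mammary epithelium, and which factor uses these sites was not tested.

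Other motifs differed by fewer percentage points, though for rare ones the ratio between the times was as large or larger. TEAD factors, which carry the coactivator YAP, bind CATTCC, found in 29.3% of regions at 2 h alone and 33.4% at 12 h alone (flanks 25.1% and 26.0%). The share at 12 h alone was the higher on 19 of 20 chromosomes and in each width class. The intervals of the 2 times were apart only at 250 to 349 bp. At 50 to 55% G and C the shares were 32.9% and 33.2%. This order turned where a vehicle region overlapped, with 29.4% of 813 and 22.05% of 127 regions. The KLF and SP site GGGCGG had 10.4% and 7.03% (flanks 6.04% and 5.16%). In each class of G and C content the share at 2 h alone was the higher, but the intervals overlapped. Among windows of 42 to 45.9% G and C the shares were 6.15% (4.97 to 7.57%) and 4.00% (3.175 to 5.034%), and at 55% or more 32.6% and 29.9%. The SMAD site GGCGCC had 4.14% and 2.54% (flanks 1.48% and 1.45%), higher at 2 h alone on 17 of 20 chromosomes. Under 250 bp of width it had 7.74% and 3.90%, and at 500 bp or wider 2.49% and 1.95%. Only under 250 bp did the intervals of the 2 times not overlap. Where a vehicle region overlapped, the order turned, with 2.46% of 813 and 11.8% of 127 regions. The palindrome of the SMAD box, GTCTAGAC, had 0.702% (0.514 to 0.958%) and 1.22% (0.976 to 1.52%), whose intervals do not overlap, and the wider SMAD motif CAGACA 45.2% and 48.3% against 40.2% and 38.9% in the flanks. The NF-kB site GGGACTTTC, of a family of inflammatory regulators, was in 60 regions at 2 h alone (1.08%, 0.840 to 1.39%) and 31 at 12 h alone (0.498%, 0.351 to 0.706%), against 0.406% and 0.528% of flanks. The site AGATAAG of GATA factors, which include the luminal regulator GATA3, was found in 9.56% and 7.63% (flanks 6.735% and 6.955%). In shared regions the shares were 32.6% for CATTCC, 12.45% for GGGCGG, 4.1% for GGCGCC and 1.04% for GTCTAGAC. They were 47.1% for CAGACA, 0.73% for GGGACTTTC and 8.0% for AGATAAG.

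The consensus of CTCF, the insulator protein that bounds chromatin loops, was in 7.34% of regions at 2 h alone, 5.64% of those at 12 h alone and 3.81% of shared regions, against 0.359%, 0.327% and 0.307% of flanks. Regions at 1 time were narrower, and within each of the 4 width classes both of their shares lay below that of shared regions. The latter were classed by their span over both lists, which is not a like measure of width. In regions under 250 bp the shares were 18.5% (2 h alone), 14.9% (12 h alone) and 21.0% (shared), and in those 500 bp or wider 0.831%, 1.36% and 1.71%. The share at 2 h alone was the higher on 14 of 20 chromosomes. Of 127 distal regions at 12 h alone that a vehicle region overlapped, 29.9% (22.6 to 38.4%) had the CTCF consensus. Such places, accessible in vehicle and at 12 h, were missing at 2 h.

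**Figure D2:**
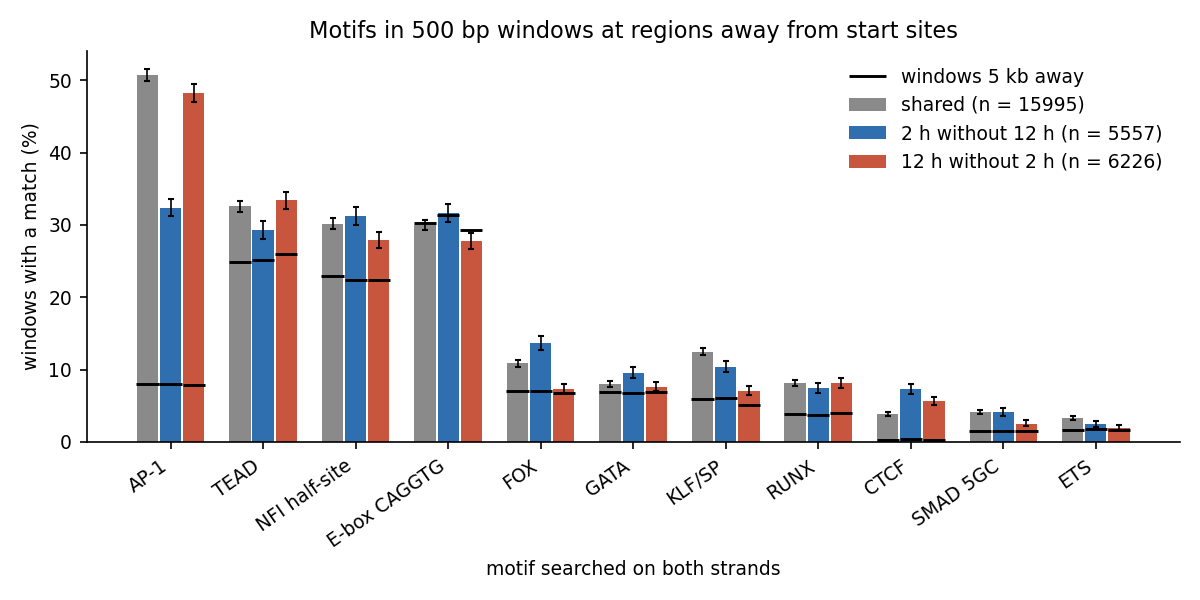
Percent of regions (vertical axis) with at least 1 match to each motif (horizontal axis) in the 500 bp around their centre, for regions more than 1000 bp from a start site. Bars are shared regions (grey), regions at 2 h alone (blue) and at 12 h alone (red) with 95% Wilson intervals, and black lines are windows 5 kb to either side. AP-1 stood at 32.4% at 2 h alone against 48.2% at 12 h alone, and FOX at 13.6% against 7.37%.

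Regions were given to the gene with the nearest protein-coding start site within 100 kb. Of 33797 such regions, 23355 were shared, 15.3% were at 2 h alone and 15.6% at 12 h alone, and these shares are the background for the gene lists that follow. For start sites the background is 10226 of 22342 protein-coding genes (45.8%) covered in both lists and 51.4% in neither. Counts for a list are a description, since few genes make up each list and regions of a gene are not independent.

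The lists of mesenchymal and epithelial genes differed in opposite directions. Of 67 regions of the 18 mesenchymal marker and matrix genes, 24 (35.8%) were at 12 h alone and 9 (13.4%) at 2 h alone. Of 28 regions of the 12 keratin genes 3 (10.7%) were at 12 h alone and 10 (35.7%) at 2 h alone, and of 51 regions of the 17 genes of epithelial adhesion and junctions 2 (3.92%) and 10 (19.6%). Of 47 regions of the 14 regulators of epithelial identity 8 were at 12 h alone and 12 at 2 h alone, but within 50 kb of a start site there were 8 of each.

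Several matrix genes had more regions at 12 h alone than at 2 h alone. Col1a2, a chain of type I collagen, and Fbn1, the microfibril protein fibrillin, each had 2 regions at 12 h alone, and no region of the 2 h list was nearest to their start sites. Col5a1, a type V collagen chain, had 3 at 12 h alone, 1 at 2 h alone and 1 shared, and that over its start site measured 848 bp (chr2:27741626-27742473). Sparc, a secreted collagen-binding protein, had 2 at 12 h alone and 1 at 2 h alone. Of the 2, 1 was 615 bp wide and covered the start site (chr11:55233092-55233706). The matrix genes Tnc (tenascin C) and Thbs1 (thrombospondin 1) had 3 each at 12 h alone, with 2 and 1 at 2 h alone. Fn1 and Vim, fibronectin and vimentin, each had a single region, shared and over the start site. For Fn1 its width was 1298 bp in the 2 h list and 1228 bp in the 12 h list, and for Vim 1657 bp and 1819 bp.

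Proteases and their inhibitors had 11 of 49 regions (22.4%) at 12 h alone and 4 at 2 h alone. The gene with the most was Adam12, a membrane metalloprotease, with 4 at 12 h alone, 1 at 2 h alone and 2 shared. A region of 1328 bp covered its start site, at 12 h alone (chr7:141422397-141423724), and lay 29035 bp from the nearest region of the 2 h list. The 4 regions held 3, 2, 2 and 1 AP-1 matches. Mmp14, the membrane-bound collagenase, had a single region, 263 bp wide, at its start site and at 12 h alone.

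Integrins, the receptors for matrix, had 14 of 75 regions (18.7%) at 12 h alone and 9 (12.0%) at 2 h alone, and members went separate ways. Itga5, the α chain of the fibronectin receptor, had 4 at 12 h alone, 0 at 2 h alone and 2 shared. The widest of the 4 measured 1770 bp (chr15:103200828-103202597), lay 4519 bp from a start site and held 3 AP-1 matches. Itgb5 had 4 at 12 h alone and 1 at 2 h alone. Itgb6, the epithelial β6 chain whose integrin activates latent TGFβ, had 4 at 2 h alone, all intronic and 321 to 372 bp wide, 0 at 12 h alone and 9 shared.

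**Figure D3:**
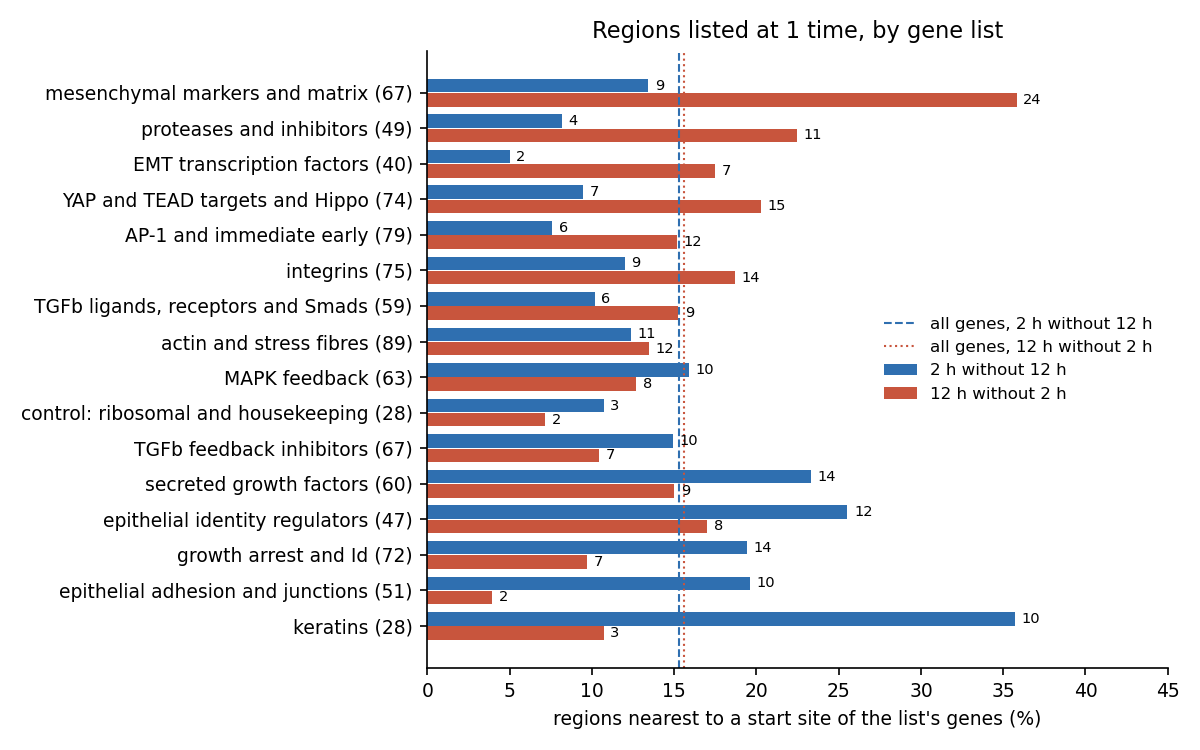
Percent of the regions nearest to each list's genes (horizontal axis) that were at 2 h alone (blue) or at 12 h alone (red), with the number of regions beside each bar and the list's total of regions in brackets. Vertical lines mark all genes, 15.3% (dashed blue, 2 h alone) and 15.6% (dotted red, 12 h alone). Lists of cell type markers are not drawn. Of the lists drawn, mesenchymal and matrix genes had the highest share at 12 h alone, 35.8%, and keratins the highest at 2 h alone, 35.7%.

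Keratin regions at 2 h alone clustered on a few genes. Krt8, a keratin of simple epithelium, had 4 at 2 h alone, 192 to 414 bp wide, 0 at 12 h alone and 1 shared, at its start site, of 1711 bp in the 2 h list and 2643 bp in the 12 h list. Its partner Krt18 had 1 at 2 h alone, 854 bp wide. Krt80 had 3 at 2 h alone and 0 at 12 h alone. At Krt20 a region of 323 bp lay over the start site at 12 h alone, which goes against the direction of the list. No region lay nearest to the basal keratin Krt5.

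Among junction genes, Cdh1, the epithelial cadherin, had 6 shared regions and 1 at 2 h alone, an intronic one of 291 bp, and its start site region measured 431 bp at both times. Epcam had 2 at 2 h alone and 1 at 12 h alone, and its start site was in neither list. Among the regulators, Klf5, an epithelial Krüppel-like factor, had 4 at 2 h alone, 0 at 12 h alone and 3 shared. Grhl2, which maintains Cdh1 expression in epithelia, had 2 at 2 h alone and 0 at 12 h alone. Elf5, a regulator of the milk-producing lineage, had a region of 820 bp over its start site at 12 h alone, with 1 AP-1 match, and 1 region at 2 h alone. At Ehf a start site region of 384 bp in the 2 h list and one of 389 bp in the 12 h list lay 79 bp apart without overlap, so they were counted as 1 at each time.

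The transcription factors that drive EMT had 31 of 40 regions shared, 2 at 2 h alone and 7 at 12 h alone. Most regions were shared over all genes too, 23355 of 33797. Of the 12 genes, 8 had a start site covered in both lists, among them Snai1, Snai2, Zeb1 and Zeb2, 1 at 12 h alone and 3 in neither. Over all protein-coding genes, 45.8% were covered in both lists. Snai1, which represses Cdh1, had 671 bp of accessible sequence over its start site in the 2 h list and 855 bp in the 12 h list, and Zeb1 1365 bp and 1714 bp. Twist2 was the gene covered at 12 h alone, by a region of 570 bp.

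Regions of the TGFβ pathway were mostly shared, as were those of all genes. Its ligands, receptors and Smads had 44 of 59 regions shared, 6 at 2 h alone and 9 at 12 h alone, and its feedback inhibitors 50 of 67 shared, 10 at 2 h alone and 7 at 12 h alone. Ski, a repressor of SMAD target genes, had 4 at 2 h alone, all intronic, 0 at 12 h alone and 4 shared. The start site of Smad7, the inhibitory Smad, was covered in both lists. Fst, which encodes the activin antagonist follistatin, and Inhbb, which encodes an activin subunit, had their start sites covered at 2 h alone, by regions of 1741 bp and 627 bp.

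Immediate early genes, YAP and TEAD targets and growth arrest genes were also set side by side. All 16 AP-1 and immediate early genes were covered at their start site at both times, against 45.8% of all protein-coding genes. Of their 79 regions, 6 were at 2 h alone and 12 at 12 h alone. Genes of YAP and TEAD had 7 of 74 at 2 h alone and 15 (20.3%) at 12 h alone. In this list the start site region of Ctgf, a matrix-associated growth factor and target of both TGFβ and YAP, was 841 bp wide in the 2 h list and 1764 bp in the 12 h list. Growth arrest and Id genes had 14 of 72 (19.4%) at 2 h alone and 7 at 12 h alone. Id1 and Id2 had 2 each and Id3 had 1 at 2 h alone, with 0 at 12 h alone for all of them.

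Secreted growth factors had 14 of 60 regions (23.3%) at 2 h alone and 9 (15.0%) at 12 h alone, and among them Vegfa, the angiogenic growth factor, had 3 at 2 h alone and 0 at 12 h alone. MAPK feedback genes had 10 of 63 at 2 h alone and 8 at 12 h alone. Actin and stress fibre genes had 11 of 89 and 12. Within them Palld, which encodes the actin-bundling protein palladin, had 7 at 12 h alone, 0 at 2 h alone and 11 shared, while Myh9, a nonmuscle myosin heavy chain, had 5 at 2 h alone and 1 at 12 h alone. Ribosomal and housekeeping genes had 3 and 2 of 28, with all 10 start sites covered at both times, against 45.8% over all protein-coding genes.

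**Figure D4:**
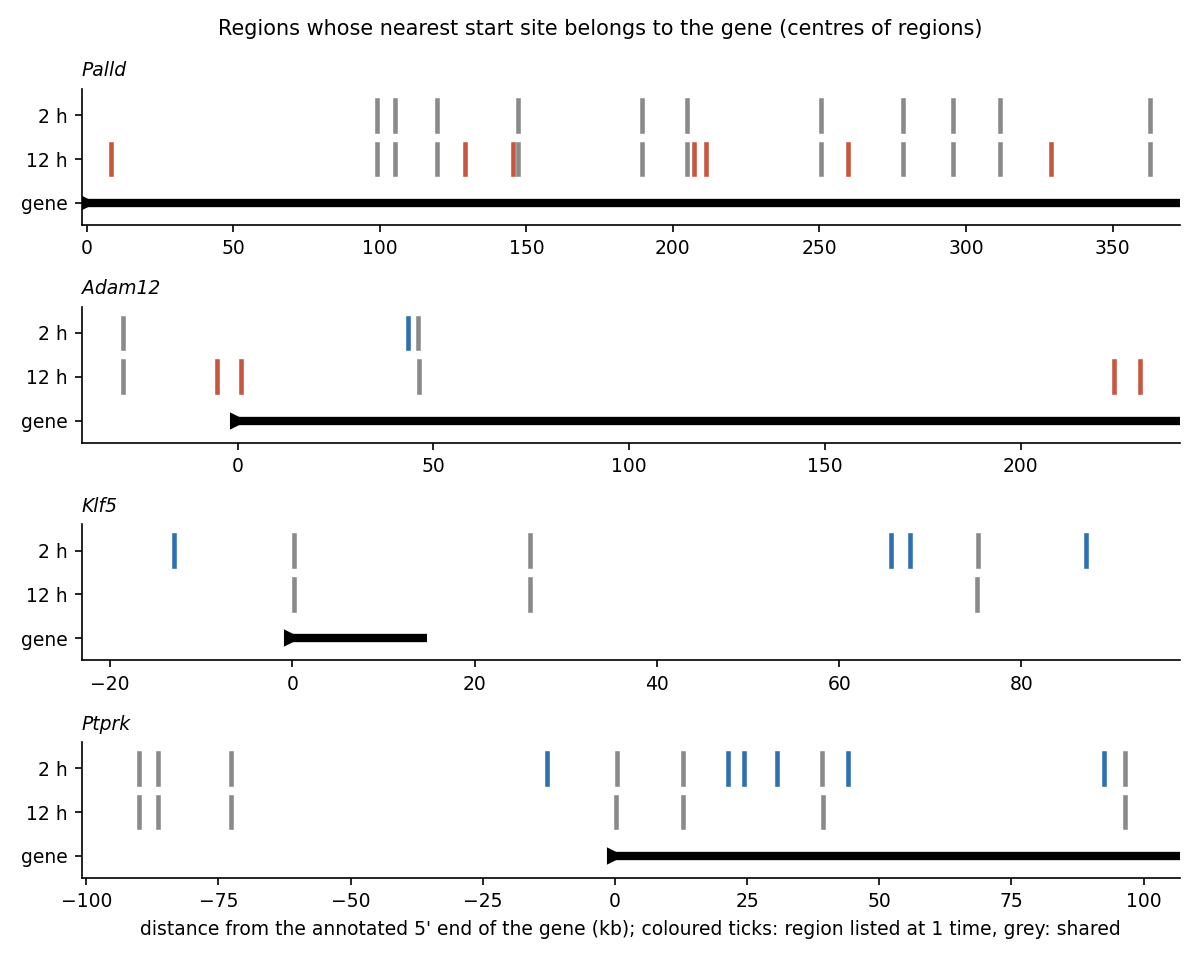
Regions of the 2 h and 12 h lists at 4 genes, by distance in kb from the annotated 5′ end of the gene (horizontal axis). Grey ticks are shared regions, blue ticks regions at 2 h alone, red ticks regions at 12 h alone, placed at their centres, and the black bar is the gene. Palld had 7 red ticks and Adam12 4, while Klf5 had 4 blue ticks and Ptprk 6, and the grey ticks of both lists lined up.

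Without regard to lists, the genes with the most regions at 12 h alone were 2010111I01Rik with 9, Pde4d with 8, and Palld and Bmpr1b with 7 each. Pde4d, a large phosphodiesterase gene, was also first at 2 h alone, with 9, and had 25 shared. Bmpr1b, a receptor for bone morphogenetic proteins, had 1 at 2 h alone and 4 shared, and Nov, a matricellular relative of Ctgf, 6 at 12 h alone, 3 at 2 h alone and none shared. After Pde4d, the genes with the most at 2 h alone were Ptprk, a receptor phosphatase of cell contacts, Fryl and Kank1, with 6 each, and Ptprk had 0 at 12 h alone and 7 shared. Of all genes, 3918 had at least 1 region at 2 h alone and 3981 at 12 h alone, and 25 and 16 had at least 5.

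Few start sites were covered at 1 time. Of 22342 protein-coding genes, 10226 had a start site in or within 1000 bp of a region at both times, 318 (1.42%) at 2 h alone and 306 (1.37%) at 12 h alone, and 11492 at neither. The vehicle list covered 51 of the 318 and 25 of the 306. Regions that lay at start sites and at 1 time had a median G and C content of 52.8% at 2 h alone and 53.2% at 12 h alone, against 64.5% for shared ones, and an AP-1 match in 19.8% and 27.5% against 8.81%. Their median widths were 415 bp and 423 bp, against 1016 bp for the span of shared ones over both lists. Pairs of 1 region from each list at start sites had medians of 904 bp at 2 h and 948 bp at 12 h.

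Among the 5 widest regions at each time alone, none at 2 h and 2 at 12 h lay at a start site. At 2 h alone they included 2536 bp near Ssr2 (chr3:88395940-88398475), 2468 bp in an intron at Plin1, the lipid droplet protein perilipin 1, an adipocyte marker (chr7:86871923-86874390), and 1900 bp near Sox10 (chr15:79014374-79016273). At 12 h alone they included 2240 bp in an intron of Foxo6 (chr4:119942890-119945129) and 2230 bp near Gm900 (chr12:114501397-114503626), and 2063 bp at the start site of Rims2 (chr15:39028966-39031028). None of these overlapped a vehicle region.

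Shared regions were slightly wider at 12 h. Of 26151 pairs in which 1 region of each list overlapped no other, 14899 (57.0%, 56.4 to 57.6%) were wider at 12 h, 11101 were narrower and 151 equal. The median width was 658 bp at 2 h and 692 bp at 12 h, and the median difference was 15 bp. The quartiles of the differences were -53 and 125 bp. On each of the 20 chromosomes more than 50% were wider at 12 h, from 53.1% to 60.6%. The share was 57.9% of pairs at start sites (median difference 18 bp) and 56.4% of pairs away from them (13 bp). In 5 classes of equal size by mean width the share was 56.8%, 59.0%, 58.1%, 57.3% and, in the widest, 53.6%. The width of a peak depends on depth and on the threshold of the authors, which cannot be told apart from accessibility here.

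Large changes of width were fewer. At least 1.5 times wider at 12 h were 2926 pairs (11.2%) and at least 1.5 times wider at 2 h were 1813 (6.93%). Timp1, a secreted inhibitor of metalloproteases, was among the 5 largest gains, with a start site region of 540 bp at 2 h and 2422 bp at 12 h (chrX:20445231-20447652) that took in 2 AP-1 matches. The start site of Furin, the protease that matures TGFβ, had 274 bp and 2229 bp. Both were 1 interval at 2 h, and at 12 h Timp1 had 3 merged intervals and Furin 2. Among pairs of single intervals, which no merging could widen, the largest gain was at Nfic, a nuclear factor I gene, from 270 bp to 1741 bp, and the largest loss at Klf3, a Krüppel-like repressor, from 1562 bp to 401 bp. The largest loss of all was at Gm9765, from 3991 bp in 3 merged intervals to 506 bp in 1.

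**Figure D5:**
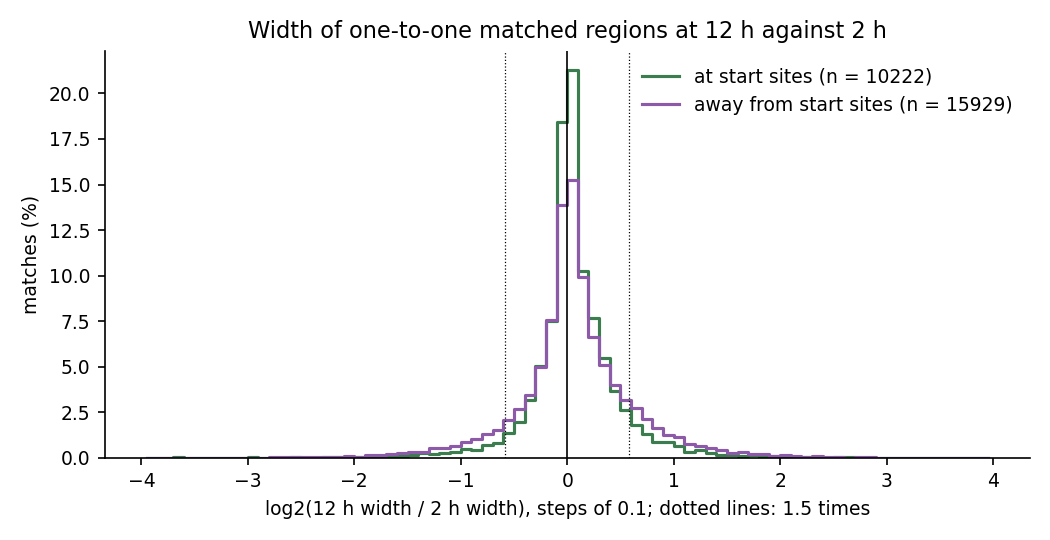
Percent of one-to-one matched regions (vertical axis) by log2 of the 12 h width over the 2 h width (horizontal axis, steps of 0.1), at start sites (green) and away from them (purple). The solid line marks equal width and dotted lines 1.5 times. Both curves peaked near 0 with more matches to the right of it, 57.9% at start sites and 56.4% away from them.

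At start sites the upstream and downstream edges were compared singly, so a pair farther out on both sides is in both shares below. The number of such pairs was not taken. In 7851 pairs at start sites read in 1 direction, the upstream edge lay farther out at 12 h in 55.1% and the downstream edge in 54.6%, by a median of 3 bp and 5 bp over all pairs. Gains of more than 200 bp were more often downstream (791 pairs) than upstream (360), but losses of that size were not counted. The downstream side was also the longer, with a median of 525 bp at 2 h against 347 bp upstream. The downstream gain exceeded the upstream gain in 3929 of the 7851 pairs, about as many as not, so the pairs as a whole did not lean downstream. Away from start sites, AP-1 matches were found in 46.7% (44.6 to 48.8%) of the 2132 pairs at least 1.5 times wider at 12 h, in 38.4% (35.9 to 41.0%) of the 1372 at least 1.5 times wider at 2 h and in 53.0% of the rest. Pairs within 1.5 times were not split by the direction of their change.

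As a check of the cell line, the start sites of 4 of 8 epithelial marker genes, Krt8, Krt18, Krt19 and Cdh1, were covered at both times, while Epcam, Cldn3, Cldn7 and Esrp1 were in neither list. Of 6 fibroblast markers, 2 were covered, Pdgfra and Col1a1, and of 6 leukocyte, 4 endothelial, 3 adipocyte and 3 muscle markers none.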

How the data were processed

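The ATAC-seq samples used came from NMuMG cells under 3 conditions with 2 biological replicates each, grouped by the sample labels. Per the study's methods and the submitters' processing notes, the authors ran the ENCODE ATAC-seq pipeline on mm9 (NCBIM37), called peaks with macs2 2.1.2 at q 0.01 and kept those with an irreproducible discovery rate of at most 0.05 between replicates. Of the deposited lists, chromosome, start and end were used. The lists give no p-value or read count, and their other columns were not used. Intervals repeated on several lines were counted once, those under 150 bp dropped and gaps under 1000 bp merged.

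Start sites were the transcript 5′ ends of GENCODE vM1, and motifs were exact matches on both strands. Genes named are the 5 widest regions and largest width changes, the 10 genes with most regions at 1 time, and members of 22 gene lists, all matched, 3 through RefSeq synonyms. Members, lists and examples were chosen with earlier results of these data known. Intervals are 95% Wilson intervals. Interval functions were tested on simulated data. Python 3.11.15, pandas 2.3.3, scipy 1.17.1 and pysam 0.24.0 were used. Alternatives changed the merge distance, width minimum, overlap, start site margin and motif window. A member of the gene lists is not reported here by name.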

Additional observations from a re-analysis of the deposited data

How the results depend on the processing

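The values below come from 1 list per condition, so precision is limited by counting error, by the thresholds of the authors and by an unknown read support of each region. No paired analysis was possible because each list was made from both replicates, and no replicate could be left out. Values are given where they left the interval of the value reported, and the directions between 2 h and 12 h remained except as stated. The share of the 2 h list without a partner and that of the 12 h list were 19.7% and 21.2% when only touching intervals were merged, 18.1% and 19.9% with merging up to 2000 bp, 17.6% (2 h) with a minimum of 300 bp, 26.0% and 27.1% under a reciprocal overlap of 50%, 18.4% and 19.9% where 1000 bp apart counted as shared, and 20.6% and 20.9% in the widest intervals of each list cut to the same number. Pairs wider at 12 h were 58.1% without merging, 57.8% with the 300 bp minimum (median difference 18 bp) and 57.6% among single intervals. Start site shares, in the order shared, 2 h alone and 12 h alone, were 12.3% and 10.3% for the last 2 without merging, 43.6%, 11.2% and 10.4% at 300 bp, 40.3%, 13.9% and 12.2% under reciprocal overlap, 49.6%, 26.5% and 22.5% with a margin of 5000 bp, and 36.2%, 6.30% and 5.29% with protein-coding start sites. AP-1 shares in that order were 54.2%, 36.4% and 51.4% at 300 bp, 52.7%, 34.7% and 46.8% under reciprocal overlap, and 33.2%, 22.3% and 36.4% in the narrower motif window, where 12 h alone stood above shared regions. Genes with a start site covered at 1 time numbered 313 at 2 h alone and 401 at 12 h alone at 300 bp, and 257 and 287 with a margin of 0, so their order turned. In alternatives chosen after the data were seen, FOX at 2 h alone and 12 h alone was 14.6% and 7.83% at 300 bp, 12.8% and 7.86% under reciprocal overlap, and 7.16% and 3.05% in the narrower window. Regions at 2 h alone and 12 h alone under reciprocal overlap numbered 12 and 27 for matrix genes, 12 and 5 for keratins, 15 and 7 for junction genes and 8 and 14 for proteases, and at 300 bp 7 and 16, 6 and 3, 8 and 1, and 4 and 10.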
